A study of Mus musculus with 35 samples.

Results

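The medulla of 5-week-old SCA7 mice was compared with the medulla of WT littermates, using 4 of the 35 RNA-seq libraries of the series, chosen by their titles. SCA7 mice carried the SCA7 266Q/5Q knock-in, in which 1 copy of the ataxin-7 gene encodes a glutamine tract of 266 residues and the other a tract of 5. WT mice carried neither the knock-in nor any other labelled allele. Each genotype had 2 libraries, made from total RNA of whole flash-frozen medulla, and the sample codes named 4 different mice, whose cervical spinal cord was sequenced too. Neither the labels nor the study's methods gave the sex of each mouse. P values therefore measured the spread between these 4 libraries.

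Ataxin-7 is a subunit of SAGA (STAGA), a coactivator complex that modifies histones at promoters, and expansion of its glutamine tract causes spinocerebellar ataxia type 7. The medulla holds the hypoglossal nucleus and other nuclei that drive breathing and swallowing. Astrocytes there clear glutamate from synapses through the transporter encoded by *Slc1a2* and turn it into glutamine with the enzyme encoded by *Glul*, while oligodendrocytes wrap axons in myelin. The comparison asked which genes differed before overt disease. In whole tissue, fewer cells of a type and less RNA per cell cannot be told apart.

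Depth split exactly with genotype. The WT libraries held 38162996 and 35923599 counts, and the SCA7 libraries 104602 and 114681. At 10 or more counts, 17773 and 17815 genes were found in the WT libraries and 2196 and 2305 in the SCA7 libraries. In the latter, 3 counts were worth 28.7 and 26.2 CPM (counts scaled to 1000000 in all). Results were therefore kept to genes averaging 10 or more counts over the SCA7 libraries, 2136 of the 18432 genes tested. Genotype and depth cannot be told apart in these 4 libraries alone. The series offered a yardstick for depth, because its 35 libraries fell into 15 deep libraries (28969003 to 99353286 counts) and 20 shallow libraries (95917 to 396417 counts), and the 9-week medulla had 3 shallow and 2 deep libraries of each genotype.

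*Atxn7*, the targeted gene, had 1451 and 1172 counts in WT and 3 in each SCA7 library, or 38.0 and 32.6 CPM against 28.7 and 26.2 CPM. It lay below the minimum for reporting and did not differ (adjusted P = 0.906, edgeR quasi-likelihood test). A knock-in of a repeat leaves the transcript in place, so this level does not check the genotype labels.

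The labelled tissue was checked against genes that mark position along the brainstem, chosen after their values had been seen. Hox genes are transcription factors switched on in the hindbrain and spinal cord and silent in front of them. The sum over 39 Hox genes was 38 counts in the WT library labelled 1, or 0.996 CPM (95% exact Poisson interval 0.705 to 1.37). In the WT library labelled 2 it was 3393 counts, or 94.5 CPM (91.3 to 97.7). The SCA7 library labelled 1 had 2 Hox counts, or 19.1 CPM (2.32 to 69.1), and the SCA7 library labelled 2 had 23, or 201 CPM (127 to 301). The 4 deep 9-week medulla libraries ranged from 83.0 to 383 CPM and the 6 shallow ones from 33.0 to 338 CPM, so the libraries labelled 1 were the lowest of their depth, the SCA7 library with an interval that reached into the 9-week range. These intervals cover counting error only.

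Genes of the midbrain ran the other way. The sum over 10 of them (*En1*, *Pax5*, *Lhx9*, *Sox14*, *Tcf7l2*, *Gata3*, *Tal1*, *Slc6a3*, *Th* and *Otx2*) was 490.5 CPM in the WT library labelled 1 and 120 CPM in the WT library labelled 2. It was 258 CPM (170 to 376) in the SCA7 library labelled 1, from 27 counts. Of these, 11 were of *Slc6a3* and 7 of *Th*. *Tcf7l2* had 8657 counts (227 CPM) in the WT library labelled 1 and 0 in the SCA7 library labelled 1. The sums of these libraries thus came in part from different genes, and a shared position along the brainstem was not shown. No count was found in the SCA7 library labelled 2, which allows up to 32.2 CPM at the upper 95% limit. In the 9-week medulla the same sum lay between 2.52 and 115 CPM. *Slc6a5*, the transporter of glycinergic neurons of the hindbrain and cord, had 545 and 9541 counts in the WT libraries labelled 1 and 2 and 4 and 32 in the SCA7 libraries labelled 1 and 2. Both libraries labelled 1, 1 of each genotype, thus carried little of the expected hindbrain signal and had a higher midbrain sum, whereas those labelled 2 carried the hindbrain signal. Each genotype had 1 library of each kind, so the difference between library numbers was not confounded with genotype. Within each number, however, the WT library had the lower Hox sum and the higher midbrain sum. Position along the brainstem and genotype thus cannot be fully told apart. This holds also between the libraries labelled 2, for which the main results below are given too.

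**Figure D1:**
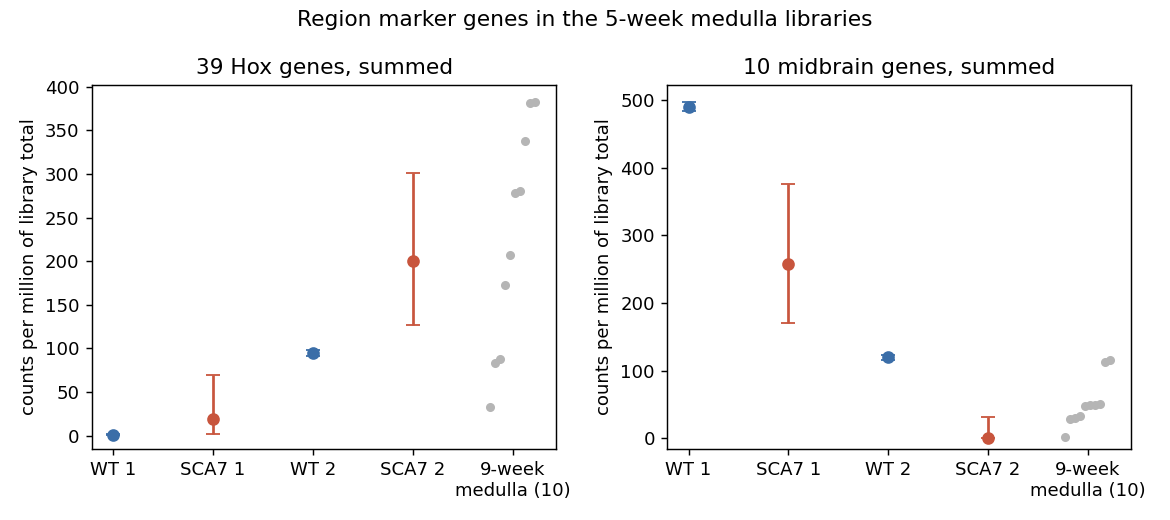
Summed CPM of 39 Hox genes (left) and of 10 midbrain genes (right) on linear axes, in WT (blue) and SCA7 (red) 5-week medulla with 95% exact Poisson intervals of the count, and in the 10 medulla libraries of 9 weeks (grey). The WT and SCA7 libraries labelled 1 lie lowest in Hox genes (0.996 and 19.1 CPM) and highest in midbrain genes (490.5 and 258 CPM).

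Among the 2136 genes, 9 were lower in SCA7 and 86 were higher at an adjusted P under 0.05. Of all 18432 genes tested, 0.846% were called in either direction, 0.0597% lower and 0.787% higher, and of the genes reported 4.45% were called, 0.421% lower and 4.03% higher. The lower genes included *Slc1a2*, *Glul*, *Sparcl1* and *Ntrk2*, which astrocytes express, together with the oligodendrocyte gene *Tspan2* and the potassium channel gene *Kcnc1*. The higher genes were led by mitochondrially encoded transcripts and by pseudogenes and genes with a Gm or LOC name. Without a multiple-testing adjustment, 244 genes (11.4%) were lower and 323 (15.1%) higher at P under 0.05. Values of WT and SCA7 libraries did not overlap for 1224 genes (57.3%), 595 of them lower and 629 higher.

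*Slc1a2*, the main glutamate transporter of astrocytes, had the smallest P value among the lower genes. Its TMM-normalised level was 1802 and 1597 CPM in WT and 299 and 292 CPM in SCA7, from 72897 and 60111 counts against 30 and 31. The groups were far apart and the replicates close. The log2 fold change was -2.52 ± 0.18 (SE, n = 2 per genotype; adjusted P = 0.0005, edgeR).

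*Glul*, glutamine synthetase, stood at 2003 and 2163 CPM in WT and 838 and 912 CPM in SCA7. Its SCA7 values rested on 84 and 97 counts. The log2 fold change was -1.25 ± 0.15 (adjusted P = 0.0088). *Sparcl1*, a secreted matrix protein of astrocytes, had 2432 and 2381 CPM in WT and 1356 and 1279 CPM in SCA7, with 136 counts in each SCA7 library. It showed the smallest change of the 9, -0.87 ± 0.14 (adjusted P = 0.0378), with WT and SCA7 values that did not overlap.

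*Tspan2*, a tetraspanin of maturing oligodendrocytes, fell from 382 and 415 CPM to 99.7 and 94.0 CPM. It had 10 counts in each SCA7 library, the fewest allowed on average, and its log2 fold change was -2.04 ± 0.24 (adjusted P = 0.0080). The other lower genes described here were *Ttll7*, a tubulin polyglutamylase (-1.65 ± 0.23, adjusted P = 0.0235), *Ntrk2*, the BDNF receptor (-1.64 ± 0.24, adjusted P = 0.0286), *Cd81*, a tetraspanin (-1.54 ± 0.23, adjusted P = 0.0333), and *Kcnc1*, a fast potassium channel (-1.38 ± 0.23, adjusted P = 0.0493). All 9 were lower in both SCA7 libraries than in both WT libraries. Between the libraries labelled 2 alone, 1 library of each genotype, the log2 ratio was -2.45 for *Slc1a2*, -2.14 for *Tspan2*, -1.25 for *Glul* and -0.90 for *Sparcl1*. It was -1.86 for *Ttll7* and *Cd81*, -1.39 for *Ntrk2* and -1.20 for *Kcnc1*. Leaving out either SCA7 library left no gene called lower, although the fold changes stayed close (for *Slc1a2*, -2.53 and -2.51 without the SCA7 library labelled 1 or 2, adjusted P = 0.0734 and 0.0727), whereas all 9 remained called without either WT library.

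Because both SCA7 libraries were shallow, the depth difference was measured separately in the 9-week medulla, between 6 shallow and 4 deep libraries with genotype in the model. These share no library with the 5-week comparison. Of the 2136 genes, 437 (20.5%) differed with depth, 168 lower and 269 higher in shallow libraries, against 1338 (6.98%) of 19157 genes tested at 9 weeks. Across the 2136 genes, the 5-week difference and the 9-week depth difference had a Pearson r of 0.947 and a Spearman rho of 0.693, and without the 95 genes called at 5 weeks the Pearson r was 0.690 (n = 2041). These are descriptions across genes, which are not independent replicates. Of the 86 higher genes, 85 had a depth difference of the same sign, and 84 were called higher with depth. All 9 lower genes had a depth difference of the same sign, and 6 were called lower with depth. In the 5-week WT cervical cord, where 1 library was shallow and 1 deep, the shallow-to-deep ratio had the sign of the change for 84 of the 86 higher genes and 6 of the 9 lower genes.

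**Figure D2:**
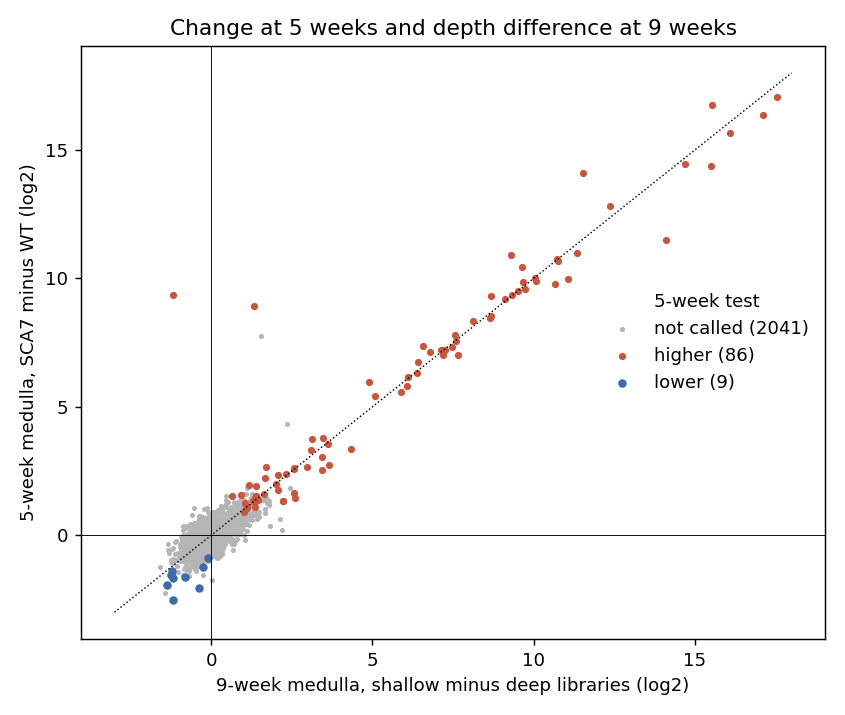
Each point is 1 of the 2136 genes, with the log2 difference between shallow and deep 9-week medulla libraries on the x axis and the log2 fold change of SCA7 over WT at 5 weeks on the y axis (higher red, lower blue, not called grey, dotted line of equal values). The 86 higher genes follow the depth difference (84 were called higher with depth), while *Glul*, *Sparcl1* and *Tspan2* lie well below 0 on the y axis near 0 on the x axis.

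The lower genes were not alike in their depth difference. Shallow minus deep at 9 weeks, *Glul* had a log2 depth difference of only -0.24, *Sparcl1* of -0.11 and *Tspan2* of -0.38. The depth difference of *Slc1a2* was -1.19, of *Cd81* -1.24, of *Kcnc1* -1.23, of *Ttll7* -1.20 and of *Ntrk2* -0.82. Of the 1490 genes whose depth difference was within 0.5 of 0, these same *Glul*, *Sparcl1* and *Tspan2* were the 3 called lower (0.201%) and 0 were called higher (0%), by edgeR with P values adjusted over all genes tested. Among those 1490 genes, 119 were lower (7.99%) and 69 higher (4.63%) at an unadjusted P under 0.05.

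Levels on 1 scale across the 5-week and 9-week medulla libraries divided the lower genes differently, with *Slc1a2* beside *Glul*, *Sparcl1* and *Tspan2*. *Glul* had 767 and 838 CPM in the 5-week SCA7 libraries. In WT medulla it had 1981 and 2171 CPM at 5 weeks, 1974 and 2198 CPM in deep and 1567 to 2090 CPM in shallow 9-week libraries. Every WT library of 5 or 9 weeks, shallow or deep, was above both 5-week SCA7 libraries. At P8, 8 days after birth, WT medulla had 557 and 482 CPM. The 9-week SCA7 libraries held 857 and 870 CPM where deep and 561 to 610 CPM where shallow.

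*Slc1a2* had 274 and 268 CPM in 5-week SCA7 medulla. The 3 shallow 9-week WT libraries had 927 to 1032 CPM, below the 1821 to 1854 CPM of the deep ones but still above both 5-week SCA7 libraries. Shallow 9-week SCA7 libraries went down to 93.5 CPM and reached 169 CPM. *Sparcl1* had 1243 and 1174 CPM at 5 weeks in SCA7, against 2074 to 2813 CPM in shallow 9-week WT, and *Tspan2* had 91.4 and 86.3 CPM against 197 to 203 CPM. These values lay outside the range of all WT medulla libraries of the same ages.

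The other lower genes came near to shallow WT libraries or overlapped them. *Cd81* had 164 and 121 CPM in 5-week SCA7 and 148 to 176 CPM in shallow 9-week WT. *Ttll7* had 119 and 95.0 CPM against 115 to 236 CPM. *Ntrk2* lay just below, at 174 and 181 CPM against 189 to 293 CPM, and *Kcnc1* at 146 and 155 CPM against 163 to 265 CPM.

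The cervical cord of the same mice gave a second view, where the shallow libraries were those of both SCA7 mice and of 1 WT mouse. *Glul* had 933 and 1133 CPM in SCA7 and 1651 and 1645 CPM in the shallow and the deep WT library. *Slc1a2* had 221 and 328 CPM in SCA7, 1098 CPM in the shallow and 1794 CPM in the deep WT library. For both genes the shallow WT library lay well above the SCA7 libraries. *Tspan2* had 103 and 188 CPM against 472 CPM in the shallow WT library, and *Sparcl1* 981 and 1585 CPM against 2586 CPM. *Cd81* had 253 and 167 CPM against 211 CPM, so that for this gene the shallow WT library lay between the SCA7 libraries. *Kcnc1* had 47.4 and 75.2 CPM against 154 CPM, *Ntrk2* 79.1 and 91.3 CPM against 179 CPM, and *Ttll7* 103 and 140 CPM against 163 CPM, with the shallow WT library above both.

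**Figure D3:**
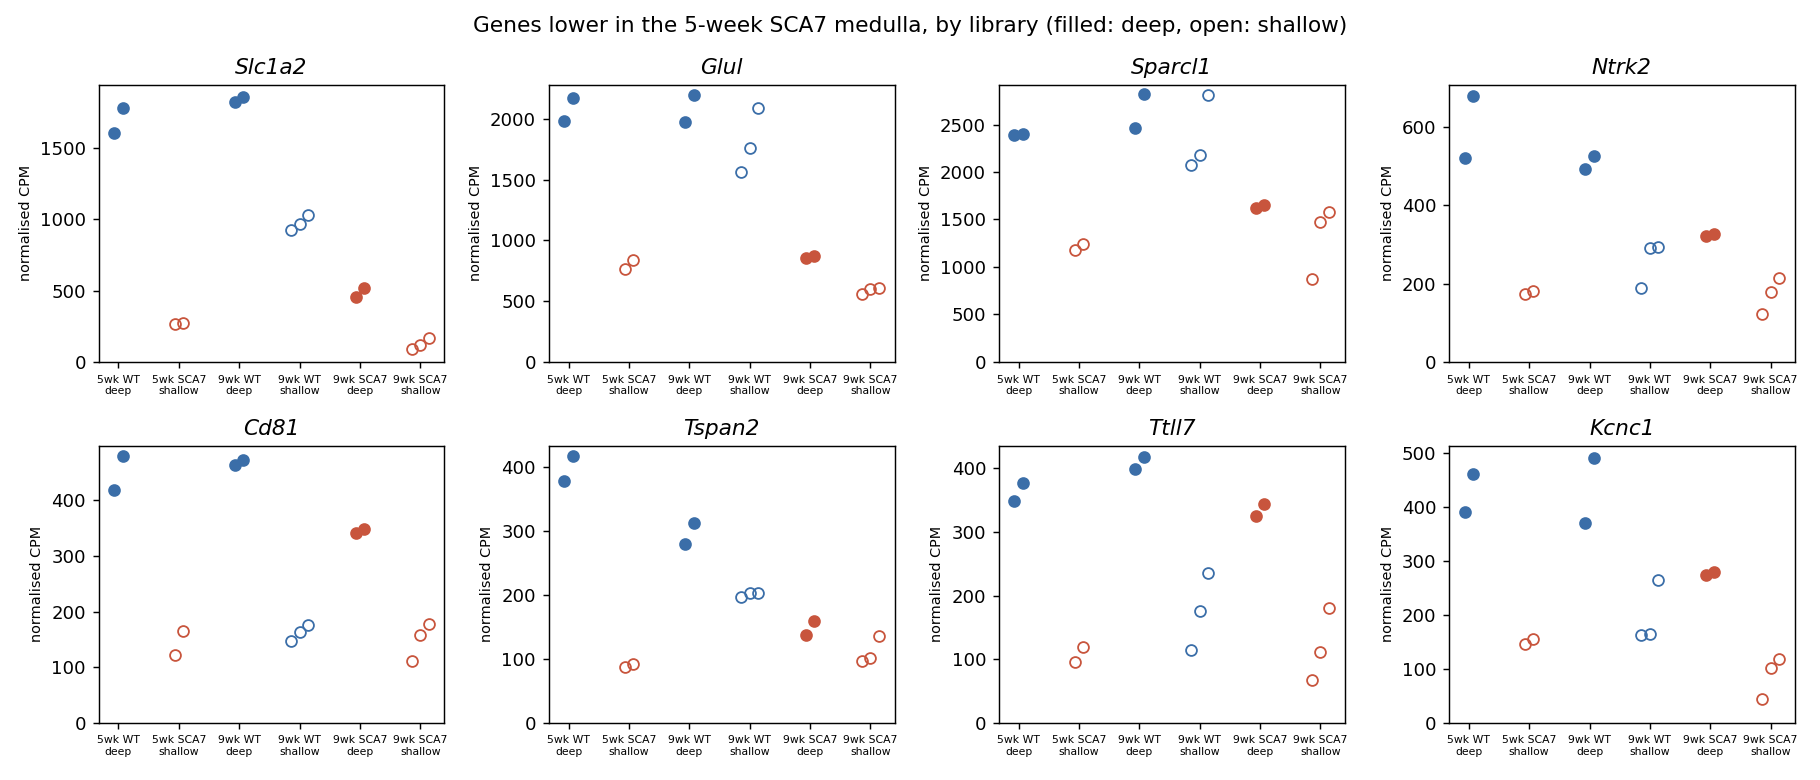
Normalised CPM of 8 of the 9 lower genes in every 5-week and 9-week medulla library, by genotype (WT blue, SCA7 red), age and depth (deep filled, shallow open), on linear axes from 0. For *Glul*, *Slc1a2*, *Sparcl1* and *Tspan2* the 5-week SCA7 points lie below every WT point, including the shallow ones, while for *Cd81* they overlap the shallow WT points (148 to 176 CPM).

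With depth as a term in a fit over all 18 medulla libraries, no gene was called in edgeR, of 21133 tested. Without that term, the same fit called only the pituitary hormone gene *Pomc* among the 2136 genes. *Slc1a2* at -2.51 (adjusted P = 0.593, edgeR) and *COX2* at 15.68 (adjusted P = 0.615) were not called there. The lack of calls thus cannot be put down to the depth term alone. With the term, DESeq2 called *Glul* lower and *Pomc* higher among the 2136 genes. In edgeR with the term, 37 of the 2136 genes were lower (1.73%) and 55 higher (2.57%) at an unadjusted P under 0.05. In that fit the 5-week log2 fold change was -1.57 ± 0.31 for *Tspan2* (unadjusted P = 5.8e-05 and adjusted P = 0.614), -1.29 ± 0.34 for *Slc1a2*, -0.95 ± 0.23 for *Glul* and -0.76 ± 0.28 for *Sparcl1*. It was -0.09 ± 0.38 for *Kcnc1* and -0.31 ± 0.28 for *Cd81*. The same fit without the libraries labelled 1 called no gene lower and 1 higher, *Pomc*.

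At 9 weeks, deep libraries of both genotypes allowed the same comparison without a depth gap. There the log2 fold change of SCA7 over WT was -1.95 for *Slc1a2*, -1.31 for *Glul*, -1.03 for *Tspan2* and -0.73 for *Sparcl1*. Their adjusted P values were 0.0001, 0.0002, 0.0011 and 0.0038 (edgeR, n = 2 per genotype). *Kcnc1* stood at -0.68 (adjusted P = 0.0147) and *Cd81* at -0.48 (adjusted P = 0.0072). The shallow 9-week libraries, 3 per genotype, had no depth gap either. Between them the values were -2.95 for *Slc1a2*, -1.63 for *Glul*, -0.88 for *Tspan2*, -0.86 for *Sparcl1*, -1.17 for *Kcnc1* and -0.14 for *Cd81*. Of these only *Slc1a2* passed (adjusted P = 0.0008, edgeR). The adjusted P was 0.0740 for *Glul*, 0.490 for *Tspan2*, 0.526 for *Sparcl1*, 0.457 for *Kcnc1* and 0.899 for *Cd81*. No gene of the 2136 differed in its SCA7 change between 5 and 9 weeks after adjustment in edgeR, and DESeq2 called 1. At an unadjusted P under 0.05 there were 159 in edgeR, against 1041 of all 19458 genes tested. Depth followed genotype at 5 weeks but not at 9 weeks, and even *COX2*, with a log2 difference of 14.18, was not called. The lack of calls therefore cannot show that the SCA7 change was alike at both ages.

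Astrocyte genes as a list lay below the median of all genes. Of 32 genes, 25 were reported, 3 were lower (*Slc1a2*, *Glul* and *Sparcl1*), none was higher and 22 had a negative fold change, with a median of -0.86 against -0.01 over all 2136 genes. Their summed level was 20224 and 21543 CPM in WT and 10507 and 10124 CPM in SCA7. The libraries labelled 1 gave a median log2 ratio of -0.83 and those labelled 2 of -0.82, so the list lay lower in both. Depth differences for these genes had a median of -0.11 at 9 weeks, and with depth as a term the median was -0.75, with 23 of 25 negative. Among the 20 astrocyte genes within 0.5 of no depth difference, 18 were negative, with a median of -0.76.

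Further astrocyte genes did not pass the threshold. *Slc6a11*, the GABA transporter GAT3, had a value of -2.23 ± 0.38 (adjusted P = 0.0581), beside a depth difference of -1.42 and a value of -1.04 with depth as a term. *Slc4a4*, a bicarbonate cotransporter, stood at -1.39 ± 0.24 (adjusted P = 0.0576), with a depth difference of -0.48 and a value of -0.96 with depth as a term. Both were singled out after their values were seen. *Kcnj10*, the Kir4.1 potassium channel, had 578 and 672 CPM against 309 and 376 CPM (-0.86 ± 0.20, adjusted P = 0.159).

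Other astrocyte genes did not pass either, and not all had negative values. *Slc1a3*, the second glutamate transporter of astrocytes, had 212 and 221 CPM in WT and 389 and 150 CPM in SCA7, where the library labelled 1 was above and that labelled 2 below both WT values (0.31 ± 0.35, adjusted P = 0.861). The glycine transporter gene *Slc6a9* had 203 and 257 CPM against 130 and 320 CPM, and its value of -0.02 changed sign with the scaling. *Slc7a10*, another amino acid transporter of astrocytes, had 2948 and 3304 counts in WT and 4 and 3 in SCA7, below the minimum for reporting (-1.24 ± 0.41, adjusted P = 0.334). *Gfap*, the intermediate filament of astrocytes, had 205 and 616 CPM in WT and 130 and 273 CPM in SCA7. Within each genotype it was lower in the library labelled 1, and its value of -1.02 ± 0.63 did not pass (adjusted P = 0.650). The value was -1.60 without the WT library labelled 1 and -0.01 without the WT library labelled 2. With the replicate number as a block it was -1.02 (adjusted P = 0.0029, edgeR). That number joins different mice, and the block raised the lower calls among the 2136 genes from 9 to 107, so this P value carries little weight.

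Among 20 amino acid and neurotransmitter transporter genes, 12 were reported, of which 2 were lower, *Slc1a2* among them, none was higher, and the median was -0.37 (-0.77 between the libraries labelled 2). The depth difference of the list had a median of -0.43, and among its 6 genes within 0.5 of no depth difference 3 were negative, with a median of 0.01. In the ion transport list, 19 of 23 genes were reported, *Kcnc1* was lower, 17 were negative and the median was -0.81 (-0.55 between the libraries labelled 2). That list moved with depth, with a median of -0.48 for the depth difference and of -0.21 with depth as a term. The glycine and GABA list had 9 of 16 genes reported, 1 lower, and a median of -0.97 (-1.11 between the libraries labelled 2) beside a depth difference of -0.68 and a median of -0.17 with depth as a term. Its genes *Gad1* and *Gad2*, which make GABA, also differed within each genotype, with more in the library labelled 1 (for *Gad1*, 453 and 234 CPM in WT and 209 and 84.6 CPM in SCA7).

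Myelin genes were mixed. Of 24 genes, 19 were reported, *Tspan2* was lower, none was higher, and the median was -0.33, with 14 negative. The median ratio was -0.12 for the libraries labelled 1 and -0.57 for those labelled 2, and the median was 0.04 without the WT library labelled 2 and 0.02 when counts were thinned to equal depth.

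*Mbp*, myelin basic protein, had a positive value, with 7328 and 12731 CPM in WT and 16564 and 19918 CPM in SCA7 (0.86 ± 0.24, adjusted P = 0.249), a depth difference of 1.66 and a value of -0.85 with depth as a term. *Mobp* stood at -0.14 ± 0.21 (adjusted P = 0.906) and *Mog*, the myelin surface glycoprotein, at -0.97 ± 0.34 (adjusted P = 0.361), with 195 and 277 CPM in WT and 89.8 and 150 CPM in SCA7. With depth as a term, 17 of the 19 myelin genes were negative, with a median of -0.48, and 4 had an unadjusted P under 0.05. *Sgk1*, a kinase induced by glucocorticoids, was chosen after its values were seen. It had 271 and 378 CPM in WT and 79.8 and 113 CPM in SCA7 (-1.75 ± 0.32, adjusted P = 0.0774), with a depth difference of 0.02.

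**Figure D4:**
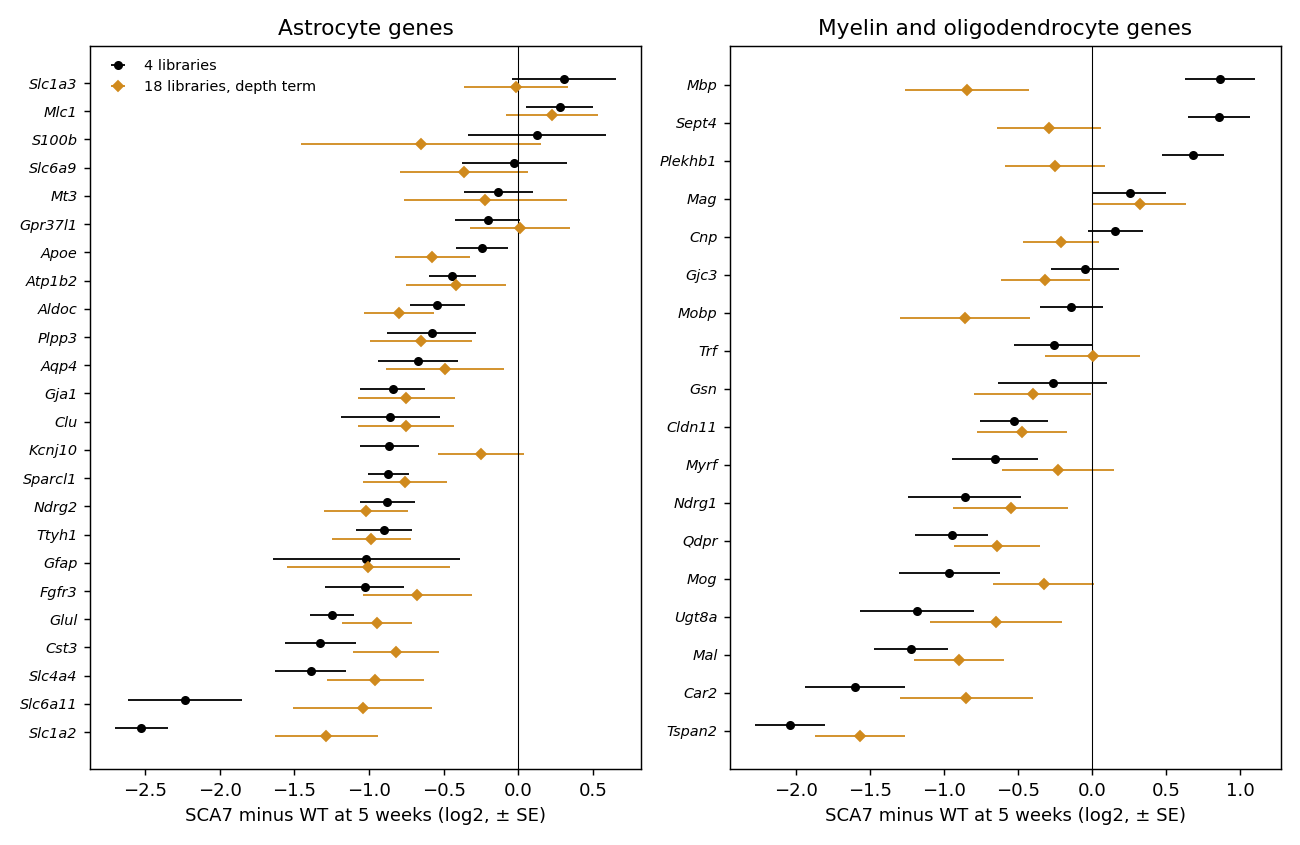
Log2 fold changes of SCA7 over WT at 5 weeks for 24 reported astrocyte genes and 18 myelin genes, from the 4 libraries (black) and from 18 medulla libraries with depth as a term (orange), with standard errors. Most astrocyte genes lie below 0 in both fits, whereas myelin genes such as *Mbp* and *Mobp* lie further down when depth is a term.

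Neuronal genes had medians near 0. In the neuron list, 18 of 20 genes were reported, none passed, and the median was -0.16 (-0.13 and -0.18 in the libraries labelled 1 and 2). Among its most abundant members was *Ndrg4* (0.21 ± 0.14, adjusted P = 0.689). The synaptic vesicle list had 24 of 25 genes reported, with *Dnm1*, the dynamin of synaptic endocytosis, higher at 0.90 ± 0.14 (adjusted P = 0.0394) and a median of -0.14. *Dnm1* was higher by 1.01 in shallow 9-week libraries and stood at 0.00 with depth as a term. Of 31 axonal cytoskeleton genes, 29 were reported, *Stmn1* (1.36) and *Tuba1b* (1.44) were higher, and the median was -0.06. Both had a depth difference of about the same size, 1.35 and 1.42. For motor neurons, 1 of 12 genes was reported, *Ache*, at -0.32 ± 0.25.

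Higher genes were of a different kind. Of the 86, 45 were mitochondrially encoded, RefSeq pseudogenes or genes with a Gm or LOC name, and 41 were other genes. All 12 reported mitochondrial genes and all 18 reported pseudogenes were higher, as were 29 of 31 genes named Gm or LOC. Among 2023 protein-coding nuclear genes with other names, 9 were lower and 38 higher. In 41 of the 86, both WT libraries had under 100 counts, although these libraries were by far the deeper ones.

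The mitochondrial genes separated into 2 kinds. *COX2*, a subunit of cytochrome oxidase, had 10 and 9 counts in WT and 1194 and 1476 in SCA7. *ATP6* had 3 and 5 counts against 1434 and 1619, *COX3* had 3 and 9 against 1374 and 1428, *ND4L* had 5 and 3 against 218 and 294, and *ATP8* had 0 and 1 against 215 and 223. *ND3* had 436 and 415 counts against 155 and 183. The deep WT libraries thus held almost no counts of 5 genes that the shallow SCA7 libraries held in plenty.

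*COX1* had 502129 and 529334 counts in WT and 8490 and 9667 in SCA7, or 12412 and 14061 CPM against 84667 and 90908 CPM, a log2 fold change of 2.73 ± 0.10 (adjusted P = 1.8e-05). *CYTB*, *ND1*, *ND2* and *ND5* rose less, by 1.63, 1.46, 1.35 and 1.34, and *ND4* by 2.54. The split of *COX2* followed depth in every library of the series, with 0.209 to 2.04 CPM in the 15 deep and 7634 to 45033 CPM in the 20 shallow libraries of either genotype. In the 9-week medulla the depth difference was 16.09 for *COX2*, 7.11 for *ND3* and 3.66 for *COX1*, beside 5-week differences of 15.66, 7.23 and 2.73 (15.83, 7.29 and 2.69 between the libraries labelled 2). With depth as a term, the values were -0.33 for *COX2*, 0.02 for *ND3* and -0.70 for *COX1*. In 1 shallow 9-week SCA7 library *COX1* reached 739461 CPM on the normalised scale, against 60815 to 98183 CPM in the other shallow 9-week libraries.

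**Figure D5:**
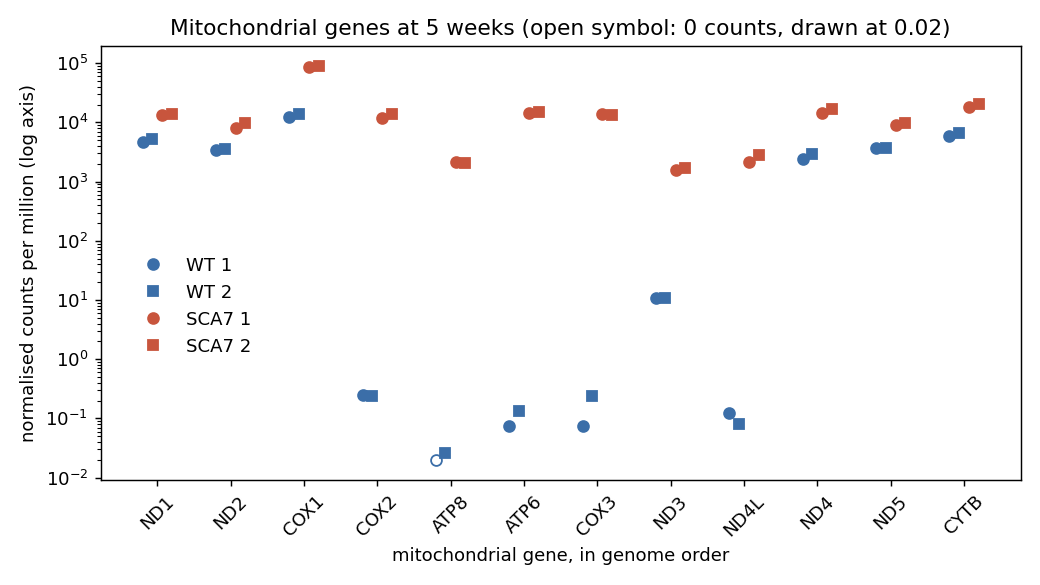
TMM-normalised CPM of the 12 reported mitochondrial genes in the 4 medulla libraries at 5 weeks (WT blue, SCA7 red), in genome order on a log axis, with the single 0 count (*ATP8*, WT) as an open symbol at an arbitrary low level. *COX2*, *ATP6*, *ATP8*, *COX3* and *ND4L* lie below 1 CPM in both WT libraries and above 2000 CPM in both SCA7 libraries, while *COX1* and *ND1* differ by a far smaller factor.

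The nearly missing genes lie in 1 stretch of the mitochondrial genome, with *ND3* between *COX3* and *ND4L*. Mouse chromosome 1 carries a copy of that stretch. By the study's methods, only reads that mapped to a single place in the genome were kept, which a read from a sequence present in both places cannot do. In GRCm38, annotated by GENCODE, 7 mitochondrial gene copies lie at chr1:24611535-24616197 on the minus strand, with 7 mismatches in 4149 aligned bases. The copies of *COX2* (*Gm28661*), *ATP6* (*Gm10925*), *COX3* (*Gm28437*) and *ND4L* (*Gm10222*) matched the gene at every aligned base, at 681, 678, 783 and 294 bases. *ND3* and its copy *Gm28438* differed at 1 of 345 bases. The copy of *ND4*, *Gm28439*, covered 63.6% of the gene without a mismatch, and that of *COX1*, *Gm29216*, covered 31.8% with 6 mismatches in 492 bases. *ATP8* (chrM:7766-7969) lies after *COX2* and overlaps the start of *ATP6*, which begins at 7927. No copy of *ATP8* as a gene was aligned. On chromosome 1 the copy of *ATP6* ends at 24614651 and that of *COX2* starts at 24614885. The bases between them were not compared with *ATP8*. None of these copies was listed as a gene of its own in the counts. The first 60 bases of *COX2* (chrM:7013-7072) and *ND3* (chrM:9459-9518) and of their copies (chr1:24615506-24615565 and chr1:24613060-24613119, minus strand) are shown to let the copies be compared, with the substitution T3C between *ND3* and its copy in capitals, counted from 1 at the first base of *ND3*.
COX2: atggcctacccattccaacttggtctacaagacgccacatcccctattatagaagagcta
Gm28661: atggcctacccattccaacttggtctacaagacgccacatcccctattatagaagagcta
ND3: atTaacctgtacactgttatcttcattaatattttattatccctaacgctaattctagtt
Gm28438: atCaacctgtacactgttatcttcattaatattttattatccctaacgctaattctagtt

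The 4 genes without a mismatch over nearly their whole length had almost no counts in deep libraries, as did *ATP8*, for which no copy was aligned. *ND3* with its single mismatch was in between. *COX1* and *ND4*, copied in part, had many counts in deep libraries, but their 5-week differences (2.73 and 2.54) were above those of *ND1*, *ND2*, *ND5* and *CYTB* (1.34 to 1.63), which had no copy in that stretch. Whether the handling of reads with 2 places differed between deep and shallow libraries was not tested.

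Other higher genes also had few counts in deep WT libraries, and whether they have copies elsewhere in the genome was not tested. *Atp6v0c-ps2*, a pseudogene of a proton pump subunit, had 37 and 42 counts in WT and 35 and 44 in SCA7, despite the gap in depth, a log2 fold change of 8.55 ± 0.27 (adjusted P = 1.1e-05) beside a depth difference of 8.68. *Eno1b* had 22 and 18 counts against 29 and 41 (9.35, depth difference 9.32). *LOC108167755* had 21 and 16 against 24 and 35, *Gm15564* had 92 and 74 against 30 and 43, and *Gm9234* had 1 in each WT library against 18 and 30. With depth as a term their values ranged from -0.18 for *Atp6v0c-ps2* to 0.96 for *Gm15564*.

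Genes with ordinary names were also among the higher ones. *Ubb*, a polyubiquitin gene, had 187 and 197 CPM in WT and 1227 and 1213 CPM in SCA7 (2.67 ± 0.16, adjusted P = 0.0002, and 2.63 between the libraries labelled 2), with a depth difference of 2.97. *Pgam1*, a glycolytic enzyme, rose from 58.6 and 58.0 CPM to 279 and 188 CPM (depth difference 1.99). The ribosomal protein genes *Rps28* and *Rpl11* rose by 2.65 and 1.56, with depth differences of 1.70 and 0.93. *Fam135a*, *Sdhaf4*, *Col19a1* and *Adgrb3*, picked after their values were seen because they lie around the copied stretch on chromosome 1, rose by 3.75, 3.33, 3.57 and 2.62, with depth differences of 3.13, 3.08, 3.61 and 2.57.

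Most metabolic and housekeeping lists had medians near the median of all genes. In nuclear-encoded oxidative phosphorylation, 32 of 47 genes were reported, none passed, and the median was 0.01, against a median of 4.98 for the 12 mitochondrially encoded genes. *Atp5b* and *Atp5a1*, subunits of ATP synthase, stood at 0.41 ± 0.15 and 0.13 ± 0.16. All 16 glycolysis genes were reported, *Pgam1* was higher and the median was 0.03. Of 87 cytosolic ribosomal protein genes, 45 were reported, with *Rps28* and *Rpl11* higher and a median of 0.35 beside a depth difference of 0.47. The chaperone list (27 of 36 reported, none passed) had a median of -0.16, ubiquitin and proteasome genes (16 of 37, *Ubb* higher) of 0.19, and sterol and fatty acid synthesis genes (14 of 23, 1 higher) of -0.13. Transcription and splicing genes (22 of 27) had a median of 0.15, nuclear long noncoding RNAs (6 of 8) of 0.23 and circadian genes (6 of 18) of 0.26, with none passing.

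Ataxin-7 and SAGA genes were mostly too low to report. Of 24, 4 were reported, none passed and the median was -0.08. *Atxn7l3*, the adaptor of the SAGA deubiquitinases, had 205 and 198 CPM in WT and 209 and 169 CPM in SCA7 (-0.09 ± 0.22). *Usp22*, the deubiquitinase itself, had 238 and 204 CPM against 170 and 169 CPM (-0.38 ± 0.23, adjusted P = 0.640). The glucocorticoid and p53 list had 2 of 15 genes reported, *Sgk1* and *Apod* (0.05 ± 0.33), and none of 13 immediate early genes reached the minimum.

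Markers of other cells were mostly below the minimum too. For microglia and antigen presentation, 2 of 18 genes were reported, *H2-D1* (1.30 ± 0.30, adjusted P = 0.166) and *B2m* (1.07 ± 0.36, adjusted P = 0.336), both subunits of the antigen-presenting class I molecules, and with depth as a term they stood at 0.79 and 1.10. Oligodendrocyte precursors had 5 of 12 genes reported, with a median of -0.22, all 5 negative and none passing, *Olig1* and *Bcas1* being the most abundant (-0.26 and -0.14). Endothelial and mural cells had 3 of 13 (median -0.05), meningeal fibroblasts 3 of 11 (median -0.02), cerebellar neurons 2 of 10 (median 0.14) and red blood cells 0 of 5, with none passing. The cerebellar median covered a split between the SCA7 libraries labelled 1 and 2. *Itpr1* had 319 and 56.4 CPM in them (153 and 217 CPM in WT), and *Zic1* 180 and 37.6 CPM (48.7 and 127 CPM in WT). *Xist* was the 1 reported of 5 sex chromosome markers, at 330 and 325 CPM in WT and 578 and 263 CPM in SCA7 (0.35 ± 0.31), and all 4 libraries were alike in having it.

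Traces of neighbouring tissue differed between libraries, and those of the pituitary also between genotypes. *Ttr*, the choroid plexus transport protein and the 1 of 10 choroid plexus and ependyma genes reported, had 28 and 27889 counts in WT and 2 and 234 in SCA7, high in both libraries labelled 2. Of 6 Schwann cell genes, 1 was reported and it did not pass. Of 9 pituitary genes, listed after values had been seen, *Pomc* had 56 and 57 counts in WT and 3 and 197 in SCA7, *Gh* had 25 and 0 against 20 and 12, and *Prl* had 39 and 0 against 10 and 12. In CPM, *Pomc* stood at 1.47 and 1.59 in WT and at 28.7 and 1718 in SCA7. *Gh* stood at 0.655 and 0 against 191 and 105, and *Prl* at 1.02 and 0 against 95.6 and 105. All 3 were higher in both SCA7 libraries, which were also the shallow ones. The log2 fold changes of *Pomc*, *Gh* and *Prl* were 9.35, 8.93 and 7.75, beside 9-week depth differences of -1.17, 1.33 and 1.56. With depth as a term they stood at 10.56, 7.24 and 5.61. *Pomc* and *Gh* were called higher (adjusted P = 0.0180 and 0.0222), *Pomc* on the 197 counts of the SCA7 library labelled 2. The part of this tissue in other results was not tested.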

How the data were processed

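The authors extracted RNA with a Qiagen column kit, sequenced it and mapped reads to GRCm38 (mm10 per the labels), keeping reads with a single location. The aligner and counter are not given in the sources used here. The deposited files hold raw counts per gene symbol, 35976 in each library. The study's own tests used DESeq2. Here, counts were fitted with the quasi-likelihood test of edgeR 4.0.16 (limma 3.58.1, R 4.3.3) on the 4 libraries, with TMM normalisation, genes with at least 10 counts in any library, and Benjamini-Hochberg adjustment over all genes tested at 0.05. Results were kept to genes averaging 10 or more counts over the SCA7 libraries. Fold changes are log2 of SCA7 over WT. The depth term compared libraries over and under 1000000 counts. Genes named were the lower and higher genes of smallest adjusted P with groups that did not overlap (up to 12 each way), 10 genes the study names, the members of each of 32 lists that passed (otherwise the 2 most abundant) and the most abundant genes. The genes, lists and tests were chosen with earlier results of these data known. Copies were aligned from GRCm38 with GENCODE annotation, and gene classes came from RefSeq, which matched 2069 of the 2136 genes. Some genes counted in these totals are not reported here by name. The fits were tested on simulated data. Alternatives covered normalisation, filters, DESeq2 1.42.0, limma-voom, thinning, depth and left-out libraries.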

Additional observations from a re-analysis of the deposited data

Results flagged for a closer look

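For 12 named genes the SCA7 change at 5 weeks differed between medulla and cervical spinal cord, tested as the difference of the 2 changes in 1 edgeR fit with the mouse as a block. In the medulla both WT libraries were deep, and in the cervical cord 1 was deep and 1 shallow, while all 4 SCA7 libraries were shallow. The difference (log2, medulla minus cervical) was 12.05 for *COX2*, 14.72 for *ATP6*, 12.74 for *ND4L*, 15.43 for *ATP8*, 12.60 for *COX3* and 3.38 for *ND3*. Among pseudogenes and other nuclear genes it was 3.80 for *Atp6v0c-ps2*, 5.42 for *Eno1b*, 5.27 for *LOC108167755*, 3.89 for *Gm15564* and 10.64 for *Gm9234*. For *Pomc*, high in 1 SCA7 medulla library, it was 16.64. Fitted values of genes with 3 or fewer counts in both WT libraries depend on the prior count. Of the 2136 genes, 34 were called, from 50 of 18669 tested. The count fell to 1 without the cervical WT library labelled 1 and to 2 without the medulla WT library labelled 1. None of the 9 genes lower in SCA7 medulla passed this test.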

How the results depend on the processing

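The counts of 9 lower and 86 higher genes moved with the processing. Fits over the libraries labelled 2 alone, protein-coding or depth-neutral genes, TMM over depth-neutral genes and DESeq2 with a depth term were chosen after seeing the data. DESeq2 called 35 and 218, a filter of 10 counts in every library 60 and 161, a fit over the reported genes alone 65 and 157, and thinning to equal depth 39 and 190. Library totals called 15 lower, no filter 31 lower and bias-adjusted edgeR 4 lower, without *Glul* (adjusted P = 0.0502) and *Sparcl1* (0.138). Limma-voom called 6 lower and 97 higher, with 3 of the 9 lower genes among them, and not *Slc1a2* (adjusted P = 0.0857) or *Glul* (0.0736). Genes chosen without regard to genotype gave 53 higher, protein-coding nuclear genes 38 higher, and genes near no depth difference 3 lower and 0 higher. All medulla libraries in 1 fit gave 0 and 1, depth as a term 0 and 0, and depth as a term in DESeq2 1 and 1. The libraries labelled 2 alone gave 0 and 1 in both such fits. Left-out libraries gave 0 to 43 lower and 45 to 140 higher. DESeq2 size factors moved the median of all genes from -0.01 to 0.10, library totals to -0.16 and thinning to 0.25.

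Replicate numbers were shared by different mice, and deviations of same-numbered libraries had a correlation of 0.254 over 2136 genes, with 2 pairs. With the replicate number as a block, 107 genes were lower and 191 higher, all 9 and all 86 among them.

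The count of genes that differed with depth at 9 weeks, 437, was 241 in bias-adjusted edgeR and 294 to 517 with a library left out. The count that differed between tissues, 34, was 2 in DESeq2, 2 in bias-adjusted edgeR, 0 without the mouse block and 1 to 134 with a library left out. The count that differed between ages, 0, was 1 in DESeq2 and 0 to 1 with a library left out.

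Signs turned as follows (log2). Depth as a term gave -0.33 for *COX2*, -0.36 for *ATP6*, -0.20 for *ND4L*, -0.65 for *COX3*, -0.18 for *Atp6v0c-ps2*, -0.70 for *COX1* and -0.015 for *Slc1a3*. In DESeq2 it gave -0.26, -0.21, -0.032, -0.57, -0.20, -0.74 and -0.037 in that order, and -0.023 for *ND3*. With the libraries labelled 2 alone it gave 0.073 for *Kcnc1*, -0.20 for *COX2*, -0.67 for *ATP6*, -1.28 for *COX3*, -0.21 for *Atp6v0c-ps2*, -0.75 for *COX1* and -0.89 for *Slc1a3*, and without the depth term -0.55 for *Slc1a3* and 0.32 for *Slc6a9*. *Slc6a9* was at 0.086 with DESeq2 size factors, 0.081 in DESeq2, 0.19 thinned and 0.0050 with TMM over depth-neutral genes, and *Mobp* at 0.15 thinned. With a library left out, *Slc1a3* ranged from -0.51 to 0.84 (without the SCA7 library labelled 1 or 2), *Slc6a9* from -0.83 to 0.49 (without the SCA7 library labelled 2 or 1), and *Mobp* from -0.43 to 0.23 (without the WT library labelled 1 or 2). The cause was not tested.

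For named genes, 366 of the alternative values kept direction and side of the threshold, 108 kept direction but lost the call, 33 changed sign and 6 gained a call. *Kcnj10* passed with 10 counts in every library, in the fit over the reported genes and with the block (adjusted P = 0.0335, 0.0492 and 0.0027). *Gfap* (0.0029) and *Mog* (0.0295) passed with the block as well. The depth of the SCA7 libraries limited what was reported to 2136 genes.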
